A study of Drosophila melanogaster with 6 samples.

Results

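The spindle assembly checkpoint was followed through 10 genes, chosen by name and matched to their FlyBase identifiers. They are Bub3, the target of the RNA interference, and its checkpoint partners Bub1, BubR1, mad2, Mad1, Mps1, rod, Zw10, Zwilch and fzy. All 10 were found among the 14150 genes of the deposited count table, and all 10 were among the 10074 genes that passed the expression filter. RNA-seq was run on polyadenylated RNA from whole brains of female larvae of Drosophila melanogaster at late L3, the last larval stage, raised at 29 °C and dissected 96 h after egg laying. Both groups carried w and the worniu-gal4 driver, which is active in neuroblasts, the stem cells of the fly brain. The control group, ctrl, carried UAS-gfp-i, an RNA interference transgene against gfp, a gene that flies do not have. The knockdown group, CIN, carried UAS-bub3-i, the transgene against Bub3. Each group had 3 libraries from different days, numbered as batches 4, 5 and 6, and 3 brains were pooled per library. The driver acts in neuroblasts, so neurons, glia and other cells that were not targeted contributed to every value.

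The checkpoint holds a dividing cell in metaphase until each kinetochore is attached to spindle microtubules. Mps1 and Bub1 are kinases that act at unattached kinetochores, where Bub3, a WD40-repeat protein, carries Bub1 and BubR1 to the kinetochore scaffold. Mad1 brings mad2 there, and the RZZ complex of rod, Zw10 and Zwilch recruits dynein and helps to bring in Mad1. The product is the mitotic checkpoint complex of BubR1, Bub3, mad2 and fzy, the fly Cdc20, which keeps the anaphase promoting complex from marking securin and cyclin B for destruction. In larval brains, loss of Bub3 or BubR1 lets neuroblasts enter anaphase too early and gain or lose chromosomes.

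Library totals were 24668180 to 26292208 counts, and the members together held 12109 to 16988 counts per library. Levels are given as CPM, counts scaled to the library size with TMM factors. Markers of neurons (elav, nSyb, Syt1, brp, Syn and fne) summed to 2255 to 3270 CPM and those of neuroblasts (wor, mira, dpn, ase, insc, grh and klu) to 277 to 693 CPM, so the labelled tissue carried its defining transcripts. Tissue that touches the brain was unevenly represented: the summed level of the 7 measured ring gland markers was 34.3 CPM in ctrl 4 and 27.9 CPM in CIN 5 but 1167 to 3699 CPM in the other 4 libraries. The hemocyte list summed to 383 to 1547 CPM and the fat body list to 11.5 to 334 CPM, highest in ctrl 4.

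Bub3, on the minus strand at 3R:29674007-29675421 (dm6), was the member that differed most between the genotypes. The control libraries of batches 4, 5 and 6 held 149, 123 and 144 CPM. The knockdown libraries of the same batches held 80.2, 96.5 and 91.5 CPM. Each knockdown library lay below each control library, and the highest knockdown value was in the batch with the lowest control value. The means were 139 ± 13.8 CPM for ctrl and 89.4 ± 8.31 CPM for CIN (SD, n = 3), which is 64.5% of the control level. Whether reads from the RNA interference transgene add to the Bub3 counts of the knockdown libraries was not tested. Within batches 4, 5 and 6 the knockdown stood at 54.0%, 78.5% and 63.4% of its control. In whole-brain RNA, fewer cells that express a gene and less RNA per cell cannot be told apart.

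The fitted log2 fold change of Bub3 was -0.63 ± 0.13 (SE), with a 95% interval from 52.5% to 79.3% of the control level. By unadjusted p (edgeR, 0.00155) it took rank 47 among the 10074 tested genes, and after Benjamini-Hochberg adjustment over all of them edgeR's quasi-likelihood test did not call it (adjusted p = 0.333). That rule called 0.0993% of the tested genes. DESeq2, which called 1.06% of the tested genes, called Bub3 lower (adjusted p = 0.00364). Separation of the groups by itself is common in these libraries: 8.18% of the tested genes had each knockdown value below each control value, and 18.5% were lower in all 3 batches. Without ctrl 4 and CIN 5, the libraries poor in ring gland transcripts, the log2 fold change was -0.64 (edgeR, adjusted p = 0.662).

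**Figure D1:**
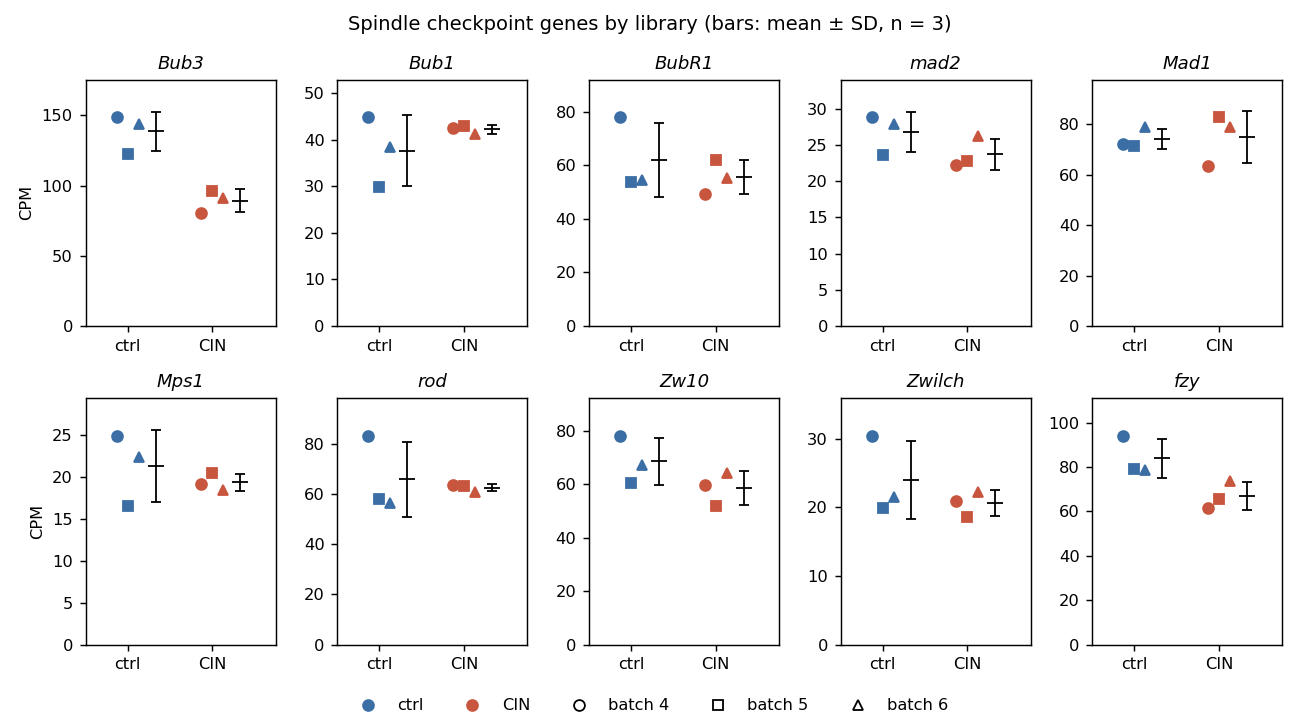
Level of each of the 10 checkpoint genes in CPM, with ctrl libraries in blue and CIN libraries in red, the batch shown by the marker and the mean ± SD (n = 3) beside the points. Bub3 lies at 123 to 149 CPM in the controls and at 80.2 to 96.5 CPM in the knockdown, while the groups overlap for every other gene except fzy.

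Neighbouring genes bear on how these counts are read, since no source used here says whether the counting used strand. Exons of 6 of the 10 members overlap exons of a gene on the opposite strand. The exons of ppk19, a gene of the pickpocket sodium channel family, cover 217 bp, or 15.9%, of the annotated Bub3 exons. The ppk19 row held only 8 to 21 counts per library, against 2013 to 3702 counts for Bub3, and its log2 fold change was -0.58 ± 0.50 (SE; edgeR, adjusted p = 0.783). The overlap was 11.5% of mad2 exons with kri and 2.87% to 5.65% for Mad1 with Cog6, Mps1 with alt, Zw10 with Smyd3, and fzy with cact. None of these 6 neighbours was called by edgeR or DESeq2, and the log2 fold changes of kri, Cog6, Smyd3 and cact lay between -0.06 and 0.16. The neighbour of Mps1, alt, had 0.39 ± 0.18 (SE; edgeR, adjusted p = 0.646), with CIN above ctrl in each batch.

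The kinases Bub1 and Mps1 overlapped between the groups. Bub1, at 2L:5278865-5283283, stood at 44.8, 29.8 and 38.4 CPM in the controls of batches 4, 5 and 6, and at 42.5, 43.0 and 41.1 CPM in the knockdown. It had the highest fold change of the 10 members, 0.16 ± 0.16 on the log2 scale (SE), and its knockdown values lay within the control range. Mps1, at 3R:17671271-17673828, stood at 24.9, 16.5 and 22.3 CPM in the controls and at 19.2, 20.5 and 18.5 CPM in the knockdown. It was lower than its control in batches 4 and 6 and higher in batch 5. Neither kinase was called by edgeR's quasi-likelihood test (adjusted p = 0.798 for Bub1 and 0.850 for Mps1). The 95% intervals allow knockdown levels of 86.1% to 146% of control for Bub1 and of 67.9% to 122% for Mps1.

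Among the partners of Bub3 in the mitotic checkpoint complex, fzy had the lowest fold change. This activator of the anaphase promoting complex, at 2L:16310956-16313097, stood at 94.0, 79.0 and 78.8 CPM in the controls of batches 4, 5 and 6. Its knockdown values were 61.5, 65.4 and 73.7 CPM, each below each control value. Such a separation was also seen for Bub3, and in 8.18% of all tested genes. The log2 fold change was -0.33 ± 0.13 (SE; edgeR, unadjusted p = 0.0358, adjusted p = 0.603), and DESeq2 did not call it either (adjusted p = 0.450). The batches differed in size of effect, with the knockdown at 65.5%, 82.9% and 93.5% of control in batches 4, 5 and 6. Of the 9 partners, fzy alone was lower at an unadjusted p under 0.05, a mark met by 3.76% of the tested genes. It no longer met that mark with the replicate block (edgeR, unadjusted p = 0.0633), with library totals as the scale (0.0941), without ctrl 4 (0.113), CIN 4 (0.0897), CIN 5 (0.0794) or ctrl 6 (0.0547), or without both ctrl 4 and CIN 5 (0.177).

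BubR1, which binds both Bub3 and fzy, lies at 2R:5969099-5974385. It stood at 77.9, 53.6 and 54.5 CPM in the controls of batches 4, 5 and 6, and at 49.3, 62.0 and 55.4 CPM in the knockdown. Apart from ctrl 4, the values of the groups were intermixed. The log2 fold change of BubR1 was -0.16 ± 0.18 (SE; edgeR, adjusted p = 0.828) and became 0.039 without ctrl 4. The gene mad2, at 3L:5812135-5813093, encodes the protein that changes shape to bind fzy. It stood at 28.8, 23.6 and 27.9 CPM in the controls and at 22.2, 22.8 and 26.2 CPM in the knockdown, lower in each batch but with overlapping groups. Its log2 fold change of -0.17 ± 0.14 (SE) was not called (edgeR, adjusted p = 0.767).

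Mad1, the kinetochore anchor of mad2, had the closest group means, 74.1 ± 4.13 CPM for ctrl and 74.9 ± 10.2 CPM for CIN (SD, n = 3). The gene lies at 2R:9288957-9291565 and stood at 72.0, 71.4 and 78.8 CPM in the controls of batches 4, 5 and 6, and at 63.4, 82.7 and 78.8 CPM in the knockdown. Its knockdown was thus below the control in batch 4, above it in batch 5 and level with it in batch 6. The 95% interval of Mad1 runs from 81.5% to 126% of the control level (log2 fold change 0.02 ± 0.13, SE; edgeR, adjusted p = 0.981).

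The 3 genes of the RZZ complex had fold changes below 0 that did not pass the test. For rod, the largest subunit, at 3R:31580951-31588244, ctrl 4 held 83.4 CPM and the other 5 libraries 56.4 to 63.6 CPM. Zw10, at X:2604197-2606824, stood at 78.0, 60.4 and 67.0 CPM in the controls of batches 4, 5 and 6, and at 59.8, 51.8 and 64.2 CPM in the knockdown, lower in each batch with overlapping groups. Zwilch, at 3R:31210966-31213376, held 30.4 CPM in ctrl 4 and 18.6 to 22.3 CPM in the other 5 libraries. The log2 fold changes were -0.08 ± 0.17 for rod, -0.22 ± 0.14 for Zw10 and -0.22 ± 0.19 for Zwilch (SE; edgeR, adjusted p = 0.923, 0.715 and 0.786). Leaving out ctrl 4 and CIN 5 turned rod to 0.119 and Zwilch to 0.056.

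**Figure D2:**
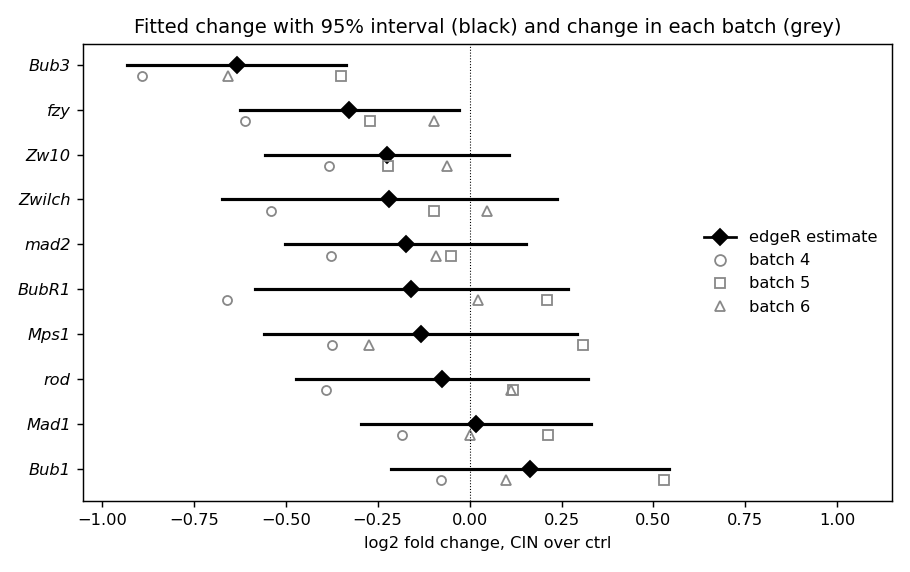
Fitted log2 fold change of CIN over ctrl for each checkpoint gene (black diamond) with its 95% interval from the edgeR fit (black line), and the log2 difference within each batch (grey markers). The intervals of Bub3 and fzy lie below 0 and the other 8 cross it, and in batch 4 all 10 genes are below 0.

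Taken over the 9 partners, edgeR and DESeq2 each called 0, where they called 0.0993% and 1.06% of all tested genes. On the lower side, 1 partner was at an unadjusted edgeR p under 0.05, as were 3.76% of all tested genes. A log2 fold change as low as the -0.63 of Bub3 lay outside the 95% intervals of 8 partners, the exception being Zwilch. The interval of Bub3 itself overlaps those of the partners other than Bub1 and Mad1. Of the 9, 7 had a negative log2 fold change, as had 48.7% of all tested genes, and the median was -0.16 against 0.01 for all tested genes. Of all 10 members, 4 (Bub3, fzy, mad2 and Zw10) were lower in each of the 3 batches, a pattern seen in 18.5% of the tested genes. The lean of the partners lay in batch 4. The median difference of the 9 partners was -0.38 in batch 4, 0.12 in batch 5 and 0.00 in batch 6, where Bub3 showed -0.89, -0.35 and -0.66. The library ctrl 4 held the highest of the 6 values for 9 of the 10 members, the exception being Mad1, while it was the highest library for 16.9% of all tested genes. Neuroblast markers were highest in ctrl 4 too: they summed to 693, 497 and 494 CPM in the controls of batches 4, 5 and 6, and to 277, 411 and 449 CPM in the knockdown. Their part in the checkpoint values was not tested.

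Relative to its partners in the same library, Bub3 was lower in the knockdown of each batch. The log2 CPM of Bub3 exceeded the mean log2 CPM of the 9 partners by 1.48, 1.63 and 1.70 in the controls of batches 4, 5 and 6. In the knockdown libraries the excess was 0.99, 1.20 and 1.07, so the groups did not overlap. The means were 1.60 ± 0.11 and 1.09 ± 0.10 (SD, n = 3), a difference of -0.52 or 1.43-fold, with an exact two-sided permutation p of 0.1, the smallest that 3 against 3 libraries can give. Within batches 4, 5 and 6 the difference was -0.49, -0.43 and -0.63, closer together than the -0.89, -0.35 and -0.66 of Bub3 alone. The mean of the partners themselves changed by -0.11 on this scale (exact two-sided permutation p = 0.5). Bub3 made up 21.8%, 23.0% and 24.4% of the summed CPM of the 10 genes in the controls and 16.6%, 18.3% and 17.2% in the knockdown.

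Bub3 was also set against each partner singly, as a ratio of CPM per kb of exon. The ratio was lower in each knockdown than in each control library for 8 of the 9 partners, the exception being Zwilch. These ratios share the Bub3 values, and for Bub3 relative to each other tested gene, in log2 CPM, the share was 60.5%. The count is therefore not read as a property of the partners, and whether it differs from that share was not tested. Against mad2, the ratio was 3.10 to 3.13 in the controls and 2.10 to 2.54 in the knockdown. Against Bub1, which binds Bub3 directly, its geometric mean was 11.7 in the controls and 6.64 in the knockdown, and against BubR1, the other direct partner, 7.69 and 5.47. The ratios among the partners overlapped between the genotypes for the 8 pairs compared, which leave out most pairs of partners. Among the pairs left out, at least Mps1 over Bub1 did not overlap. Per kb, Mps1 was above Bub1 in each control library and below it in each knockdown library. Within the RZZ complex, Zw10 was above Zwilch per kb in each library, by at least 2.23-fold, and fzy was above mad2 by 1.14- to 1.37-fold.

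**Figure D3:**
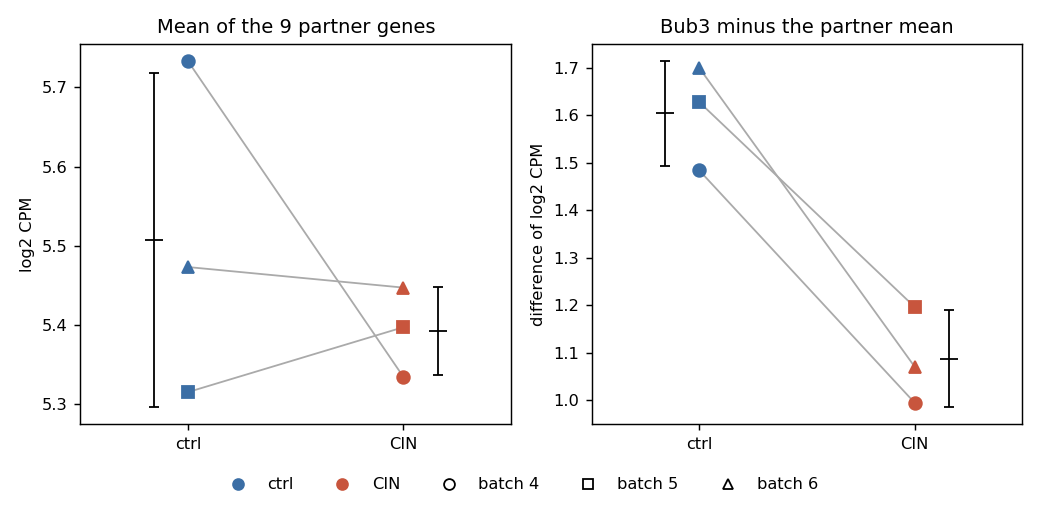
Left, mean log2 CPM of the 9 partner genes in each library. Right, log2 CPM of Bub3 minus that mean. Grey lines join the libraries of a batch and bars give the mean ± SD (n = 3): the partner means overlap between ctrl and CIN, while the Bub3 excess is 1.48 to 1.70 in the controls and 0.99 to 1.20 in the knockdown.

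Per length of exon, Bub3 was the most abundant checkpoint transcript in both genotypes. Its level was 102 ± 10.1 CPM per kb in the controls and 65.6 ± 6.10 CPM per kb in the knockdown (SD, n = 3). In the controls it was followed by fzy with 42.0 ± 4.38, mad2 with 32.7 ± 3.40, Mad1 with 30.4 ± 1.69 and Zw10 with 26.7 ± 3.47 CPM per kb. The control ranges of Bub3, fzy and mad2 did not overlap, whereas those of mad2 and Mad1, and of Mad1 and Zw10, did. BubR1, with 13.4 ± 2.98 CPM per kb, stood below the range of Zw10. Zwilch, rod, Mps1 and Bub1, at means of 8.80 to 10.7 CPM per kb, had overlapping control ranges, and BubR1 overlapped Zwilch. Within each control library, however, Mps1 was above Bub1 and BubR1 was above Zwilch. In the knockdown, Bub3 kept the first place in each library, with the lowest Bub3 value at 58.9 and the highest fzy value at 36.9 CPM per kb. The knockdown ranges of fzy, Mad1 and mad2 overlapped, although fzy was above mad2 in each library. Per-kb levels rest on the union of annotated exons and thus on the isoforms in that annotation.

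**Figure D4:**
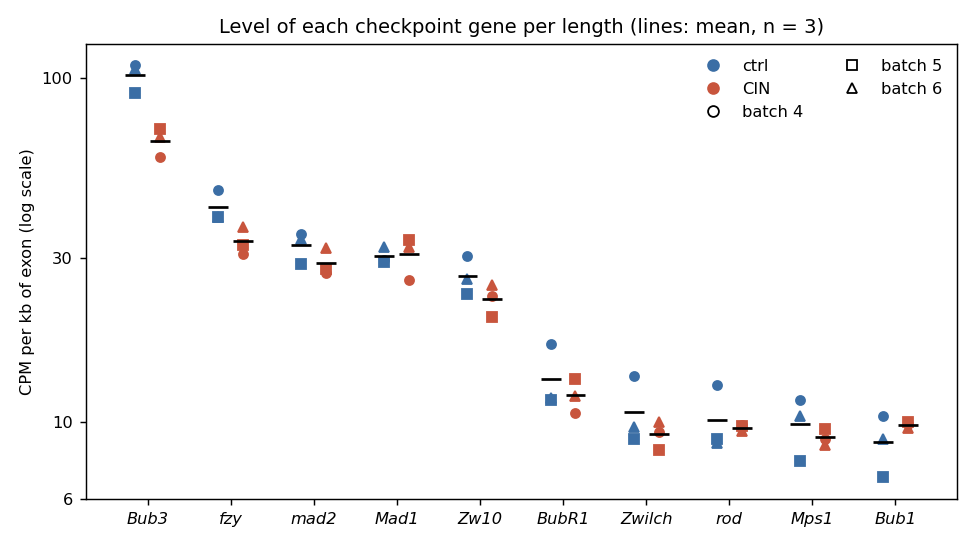
CPM per kb of annotated exon on a log axis for the 10 genes, ordered by their ctrl mean, with a marker per library and a line at the mean of each group (n = 3). Bub3 is highest in both genotypes, with means of 102 in ctrl and 65.6 in CIN, and the genes from Zwilch to Bub1 overlap.

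Around the 10 genes, 14 kinetochore scaffold and accessory genes of the checkpoint were measured, among them Spc105R, the docking site of Bub3, Ndc80, Spindly, polo and the chromosomal passenger genes. By edgeR, 0 of these were called and 1 fell under an unadjusted p of 0.05 on the lower side, as did 3.76% of all tested genes. That gene, aurB, was the single one that passed DESeq2. The median log2 fold change was -0.14, with medians of -0.64, 0.12 and 0.05 in batches 4, 5 and 6. The most abundant were the phosphatase gene Pp1-87B, at 527 ± 28.2 CPM for ctrl and 506 ± 31.6 CPM for CIN, and wdb, a regulatory subunit of the phosphatase PP2A, at 384 ± 16.9 and 413 ± 51.7 CPM (SD, n = 3). Aurora B kinase corrects faulty attachments and keeps the checkpoint active, and its gene aurB, chosen here after its values were seen, stood at 88.1 ± 5.06 CPM in the controls and 55.3 ± 9.76 CPM in the knockdown (SD, n = 3). The fit gave aurB -0.67 ± 0.15 on the log2 scale (SE; edgeR, adjusted p = 0.393; DESeq2, adjusted p = 0.0240), and its differences of -0.91, -0.64 and -0.51 in batches 4, 5 and 6 were all negative. Spc105R, also chosen after its values were seen, stood at 53.1 ± 17.0 and 49.99 ± 5.82 CPM.

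Downstream of the checkpoint, the anaphase promoting complex and its cofactors gave 11 measured genes. Neither edgeR nor DESeq2 called any of the 11, and 1, the subunit gene APC4, was lower at an unadjusted edgeR p under 0.05. On the lower side, 3.76% of all tested genes met that mark. Their median log2 fold change was -0.11, and the most abundant were fzr, the Cdh1 activator that takes over from fzy, and the subunit gene Cdc27, at log2 fold changes of 0.07 ± 0.18 and 0.14 ± 0.12 (SE). The targets and machinery of anaphase gave 11 further genes, with the cyclins, Cdk1, securin (pim), separase (Sse, thr) and cohesin. Of these, 0 were called by either tool, 2 were lower at an unadjusted edgeR p under 0.05, and the median was -0.18. Those 2, CycB3 and Cdk1, named after their values were seen, had log2 fold changes of -0.40 ± 0.16 and -0.31 ± 0.12 (SE). CycA, the most abundant, had a log2 fold change of -0.31 ± 0.16, and CycB, the cyclin that the checkpoint protects, had -0.37 ± 0.16 (SE). The CycB groups did not overlap, with 156 ± 29.06 CPM for ctrl and 121 ± 11.4 CPM for CIN (SD, n = 3), but the differences were -0.81, -0.08 and -0.17 in batches 4, 5 and 6. Each knockdown value lay below each control value in 8.18% of all tested genes. The cohesin genes SMC1, SMC3, vtd and SA1, named after their values were seen, had log2 fold changes between -0.04 and 0.06.

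**Figure D5:**
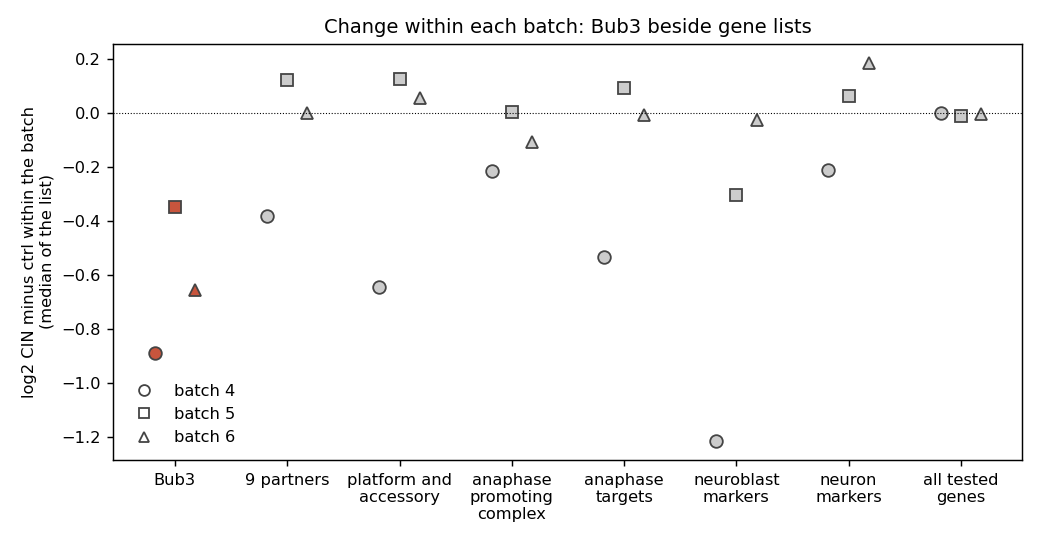
Log2 difference of CIN minus ctrl within batches 4, 5 and 6 for Bub3 (red) and the median of each gene list (grey). Bub3 is below 0 in each batch, at -0.89, -0.35 and -0.66, while the 9 partners have medians of -0.38, 0.12 and 0.00 and the platform genes -0.64, 0.12 and 0.05.

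The median difference in neuroblast markers was likewise lowest in batch 4, although dpn was lower in batch 5 (-1.12) than in batch 4 (-0.91). The medians of the 7 markers were -1.21, -0.30 and -0.03 in batches 4, 5 and 6, and neither edgeR nor DESeq2 called any of them, with 2 lower at an unadjusted edgeR p under 0.05. That mark was met on the lower side by 3.76% of all tested genes. The gene of the driver, wor, stood at 63.5, 57.6 and 60.7 CPM in the controls and at 36.4, 49.8 and 59.9 CPM in the knockdown. The knockdown level of wor was 57.4%, 86.3% and 98.7% of control in batches 4, 5 and 6, where that of Bub3 was 54.0%, 78.5% and 63.4%. In batch 6 the other 6 neuroblast markers lay at 85.3% to 112% of control. Over all libraries, wor had the smallest decrease of the 7 markers, with a fitted log2 fold change of -0.32. All 7 were negative, with a median of -0.57 and a lowest value of -0.71, beside the -0.63 of Bub3. The 6 neuron markers had medians of -0.21, 0.06 and 0.18, and 5 of them had a positive fitted log2 fold change. The exception was fne, at 1504 CPM in the controls and 1050 CPM in the knockdown and lower in each batch. Its log2 fold change was -0.519 (edgeR, adjusted p = 0.487). DESeq2 called fne lower (adjusted p = 0.0188), and it called 1.06% of all tested genes. Rae1, which encodes a nuclear WD40-repeat protein related to Bub3, stood at 63.4 ± 4.78 CPM in the controls and 55.3 ± 3.71 CPM in the knockdown (SD, n = 3). Its log2 fold change of -0.20 ± 0.11 (SE) was not called (edgeR, adjusted p = 0.703), although each knockdown value lay below each control value, at 76.7%, 99.0% and 87.8% of control in batches 4, 5 and 6. That separation was seen in 8.18% of all tested genes.

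The genes whose log2 CPM followed Bub3 most closely over the 6 libraries, among 7845 tested genes with a mean of at least 5 CPM, were CG3368, Acf, APC4, MrgBP and Wee1. Their Pearson's r with Bub3 was 0.999, 0.995, 0.990, 0.989 and 0.989, given as a description, since 6 libraries of 2 genotypes and so many candidates yield high coefficients. Acf, a subunit of ISWI chromatin remodelling complexes, stood at 140 ± 19.7 CPM in the controls and 82.7 ± 12.5 CPM in the knockdown (SD, n = 3), with a log2 fold change of -0.76 ± 0.16 (SE; edgeR, adjusted p = 0.393; DESeq2, adjusted p = 0.00749). Wee1, the kinase that restrains Cdk1, differed by only -0.12 on the log2 scale. Among the partners, fzy was most like Bub3 (r = 0.886) and Bub1 least (r = -0.225).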

How the data were processed

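The libraries were prepared with NEBNext poly(A) selection and Ultra II reagents and 13 amplification cycles, per the labels' protocols. The authors deposited raw counts per gene; Trim Galore, STAR 2.7.10a and featureCounts on dm6 are named in the submitters' processing notes, without settings. The sources used here do not give the annotation release. Symbols, coordinates (from 1) and exon lengths came from an Ensembl annotation of BDGP6, the assembly of dm6; lmg and nvd were not analysed here.

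Genes were filtered with filterByExpr, scaled by TMM and compared with edgeR 4.0.16 in R 4.3.3 (glmQLFit and glmQLFTest, genotype alone, two-sided, Benjamini-Hochberg adjustment over 10074 genes, threshold 0.05). SEs are the log2 fold change over the square root of F, with 95% intervals from the fit's degrees of freedom. Differences within batches and relative to partners used log2 CPM with a prior count of 2, on library sizes summed over the tested genes. The fit was tested on simulated data. Other settings were RLE factors, library totals, no filter, a minimum of 1 CPM in 3 libraries, DESeq2 1.42.0, voom with limma 3.58.1, a replicate block by batch, and each library left out; leaving out both ctrl 4 and CIN 5 was added after the data were seen. The batch numbers pair libraries by their labels and days, while deviations of paired libraries correlated at 0.038, -0.062 and 0.175. All p-values rest on the spread between pooled-brain libraries.

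The members and lists were chosen with earlier results of these data known. Genes named are the 10 members, Rae1, wor, genes that overlap a member, up to 3 called or else the 2 most abundant genes of each pathway list, and the 5 genes most like Bub3. Other genes named were chosen after their values were seen.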

Additional observations from a re-analysis of the deposited data

How the results depend on the processing

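Bub3 was lower in CIN in all 14 other settings, at log2 fold changes of -0.71 to -0.56, and was past the threshold in 1 of them, DESeq2 (-0.63; over the 14 settings adjusted p = 0.00364 to 0.858). With the replicate block it was -0.63 (edgeR, adjusted p = 0.467). Its difference relative to the partners stayed between -0.58 and -0.42 in 11 settings, with -0.52 for the pairs of libraries within batches (exact sign-flip p = 0.25, the smallest for 3 pairs). None of the 9 partners was called in any of the 14 settings. Leaving out 1 library gave -0.254 to 0.039 for BubR1, -0.177 to 0.127 for rod and -0.062 to 0.123 for Mad1. The sign of BubR1 and rod changed without ctrl 4, and that of Mad1 without ctrl 4 (-0.004), ctrl 5 (-0.010), CIN 5 (-0.062) or CIN 6 (-0.033). Without both ctrl 4 and CIN 5, rod had 0.119, Zwilch 0.056 and Mad1 -0.082. The cause was not tested.

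Over all genes, 5 were called lower and 5 higher. The replicate block left 0 and 0 (DESeq2 without it called 55 lower and 52 higher), the 1 CPM filter gave 10 lower, leaving out 1 library 1 to 3 lower and 0 higher, and leaving out both ctrl 4 and CIN 5 3 lower and 4 higher. DESeq2 called 1 pathway gene, aurB, where edgeR called 0. With 3 libraries a side, the 95% intervals of the 9 partners have lower ends of 62.7% to 86.1% of control and upper ends of 98.0% to 146%.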
